A study of Mus musculus with 8 samples.

Results

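The immediate early AP-1 and EGR factors were examined in MSCs (mesenchymal stem cells, which live in bone and can become osteoblasts, adipocytes and chondrocytes). The members were chosen by symbol as Fos, Fosb, Fosl1, Fosl2, Jun, Junb, Jund, Egr1, Egr2 and Ier2, and they are 10 of the 53465 genes in the count table. All 10 passed the filter on low counts that left 14369 genes, and together they held 0.0538% of the counts. The cells came from the endosteum of the hind limb bones of wild-type C57BL/6N male mice of 3 to 5 months, and were sorted as CD45-/Ter-119-/Sca-1+/CD140a+ cells on day 12 of culture per the labels. The sorted cells were divided and kept for 7 days at 2% O2 (hypoxia) or 21% O2 (normoxia), with 5% CO2 in both. There were 4 samples per group, numbered 1 to 4 in each. No sample was taken before the division, so every difference is given as normoxia against hypoxia.

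AP-1 is a dimer of basic leucine zipper proteins, most often 1 protein of the FOS family with 1 of the JUN family. JUN proteins can also pair with each other, whereas FOS proteins need a JUN partner to bind DNA well. EGR proteins are zinc finger factors that bind GC-rich sites. Many of these genes are called immediate early because growth factors, serum or stress raise their transcription within minutes and without new protein synthesis, after which the short-lived transcripts decay. In the bone lineage, Fos and Fosl2 are known for roles in osteoblasts and osteoclasts, and Junb and Fosl1 for roles in bone formation.

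The total per sample was 12898291 to 25132141 counts, and hypoxia replicate 1 was the deepest. A floor of 3 counts corresponds to 0.119 to 0.233 CPM (counts scaled to a common library size of 1e6), which covers counting error only. The mitochondrial share was 0.709% to 0.896% in the 8 samples. All 12 MSC marker genes passed the filter, with Ly6a and Pdgfra, which encode the sorted antigens Sca-1 and CD140a, at 4636 to 11995 and 1928 to 4011 counts. Of 12 blood cell markers 7 passed, and their list summed to 489 to 971 CPM in hypoxia and 599 to 1120 CPM in normoxia. Ptprc, which encodes the CD45 antigen that was sorted against, had 140 to 263 counts. The blood cell markers Csf1r and Adgre1 had 1011 to 3180 and 899 to 2004 counts. Lyz2 averaged 354 CPM in hypoxia and 523 CPM in normoxia, whereas Csf1r averaged 168 and 111 CPM. Of 7 erythroid markers 5 had 0 counts in every sample, and of 6 endothelial markers 1 did. In bulk samples, fewer cells of a type and less RNA per cell cannot be told apart. Across the whole table, 2592 genes (18.0%) were higher in normoxia and 2378 (16.5%) were lower (limma-trend, adjusted p under 0.05). Without scaling factors beyond library size, 69.6% of all calls were higher, against 52.2% with them.

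The 4 promoter windows are shown because they belong to the most abundant members per length and to Fos, whose level differed between the groups. The windows run from 250 bases before to 50 bases after the RefSeq start site on GRCm38.p6 (the assembly that the count table uses), 5′ to 3′ on the gene's strand. Capitals mark the letters found from the motif list given after the sequences. The windows are Fos at chr12:85473640-85473939 on the plus strand, Junb at chr8:84978699-84978998 on the minus strand, Jun at chr4:95052173-95052472 on the minus strand and Fosl2 at chr5:32136222-32136521 on the plus strand.
Fos: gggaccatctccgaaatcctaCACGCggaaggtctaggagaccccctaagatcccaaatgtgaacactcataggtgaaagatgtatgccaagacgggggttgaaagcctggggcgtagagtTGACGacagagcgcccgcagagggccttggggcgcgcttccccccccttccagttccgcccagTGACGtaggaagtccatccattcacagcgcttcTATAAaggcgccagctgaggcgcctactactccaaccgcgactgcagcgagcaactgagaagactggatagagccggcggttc
Junb: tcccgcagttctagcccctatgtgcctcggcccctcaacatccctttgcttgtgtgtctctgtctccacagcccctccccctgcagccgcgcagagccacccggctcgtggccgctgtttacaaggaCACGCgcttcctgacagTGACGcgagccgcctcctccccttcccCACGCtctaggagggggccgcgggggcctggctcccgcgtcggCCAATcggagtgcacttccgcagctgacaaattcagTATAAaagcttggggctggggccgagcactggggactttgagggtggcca
Jun: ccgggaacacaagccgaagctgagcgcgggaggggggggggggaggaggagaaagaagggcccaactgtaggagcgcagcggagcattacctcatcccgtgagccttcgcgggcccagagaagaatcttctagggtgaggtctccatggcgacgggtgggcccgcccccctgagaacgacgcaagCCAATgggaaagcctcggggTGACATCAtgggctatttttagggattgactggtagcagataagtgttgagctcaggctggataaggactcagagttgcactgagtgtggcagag
Fosl2: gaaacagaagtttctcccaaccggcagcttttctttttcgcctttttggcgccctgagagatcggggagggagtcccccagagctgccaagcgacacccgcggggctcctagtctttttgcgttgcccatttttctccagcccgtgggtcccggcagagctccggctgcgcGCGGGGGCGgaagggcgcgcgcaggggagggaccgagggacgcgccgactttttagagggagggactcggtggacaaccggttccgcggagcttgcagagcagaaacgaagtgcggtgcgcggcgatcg

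The motifs were searched on both strands in windows of 7 members (Fos, Fosb, Fosl2, Jun, Junb, Jund and Egr2, the last with 5 start sites) and in all 32544 RefSeq windows of the same length. For Fosl1, Egr1 and Ier2 no window was searched, so nothing is known here of their motifs. Fos held the cyclic AMP response half-site TGACG at -129 to -125 and at -66 to -62, and the TATA box core TATAA at -33 to -29. Junb held TGACG at -106 to -102, the CCAAT box at -36 to -32, and TATAA at 1 to 5 from the RefSeq start, and the GENCODE start lies 30 bases further downstream. TGACG was in 20.9% of all windows and in those of 4 members, TATAA in 24.8% and 3, and CCAAT in 37.4% and 3. Members were counted by gene, and Egr2 was counted when any of its 5 windows held the motif. These counts are thus not the same measure as the shares, which are per window. Jun held the AP-1-like octamer TGACATCA at -45 to -38, which was in 3.37% of all windows, and CCAAT at -65 to -61. Fosl2 held the EGR site GCGGGGGCG at -79 to -71. This site or GCGTGGGCG was in 3.5% of all windows and in those of Fosl2 and Fosb. The RefSeq start of Fosl2 lies 671 bases inside the GENCODE gene. The HIF core, ACGTG or GCGTG, was in 44% of all windows and in those of 5 members, among them Fos, Junb and Jund. The GENCODE start of Jund lies 1210 bases downstream of its RefSeq start. The CArG box, which SRF binds, was in 1.64% of all windows and in those of Egr2. The palindrome TGACGTCA, which contains TGACG, and the AP-1 site, TGACTCA or TGAGTCA, were in none of these members' windows, and in 1.8% and 5.19% of all windows. A match is a description of letters and not of binding.

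To ask whether oxygen level was reflected in these factors, the 10 transcripts were compared between normoxia- and hypoxia-cultured MSCs. Fos, Fosl1, Fosl2 and Junb were higher in normoxia, Jund and Egr1 were lower, and Fosb, Jun, Egr2 and Ier2 did not pass the threshold (limma-trend, adjusted p under 0.05 over all tested genes). The members thus had 4 of 10 calls in the direction in which 18.0% of all tested genes were called, and 2 of 10 in the direction in which 16.5% were. The values of the groups did not overlap for 4 members (Fos, Junb, Jund and Egr1), against 32.6% of all tested genes. The median log2 change was 0.15 over the members and 0 over all tested genes. Each of the 6 called members moved the same way in 4 of 4 pairs of same-numbered samples. Hypoxia replicate 1 had the highest hypoxia level of 8 members and the lowest of Jund and Fosb. Without that sample the calls were also 4 higher and 2 lower. With the replicate block they were again 4 higher and 2 lower, where 23.3% and 22.7% of all tested genes were called.

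**Figure D1:**
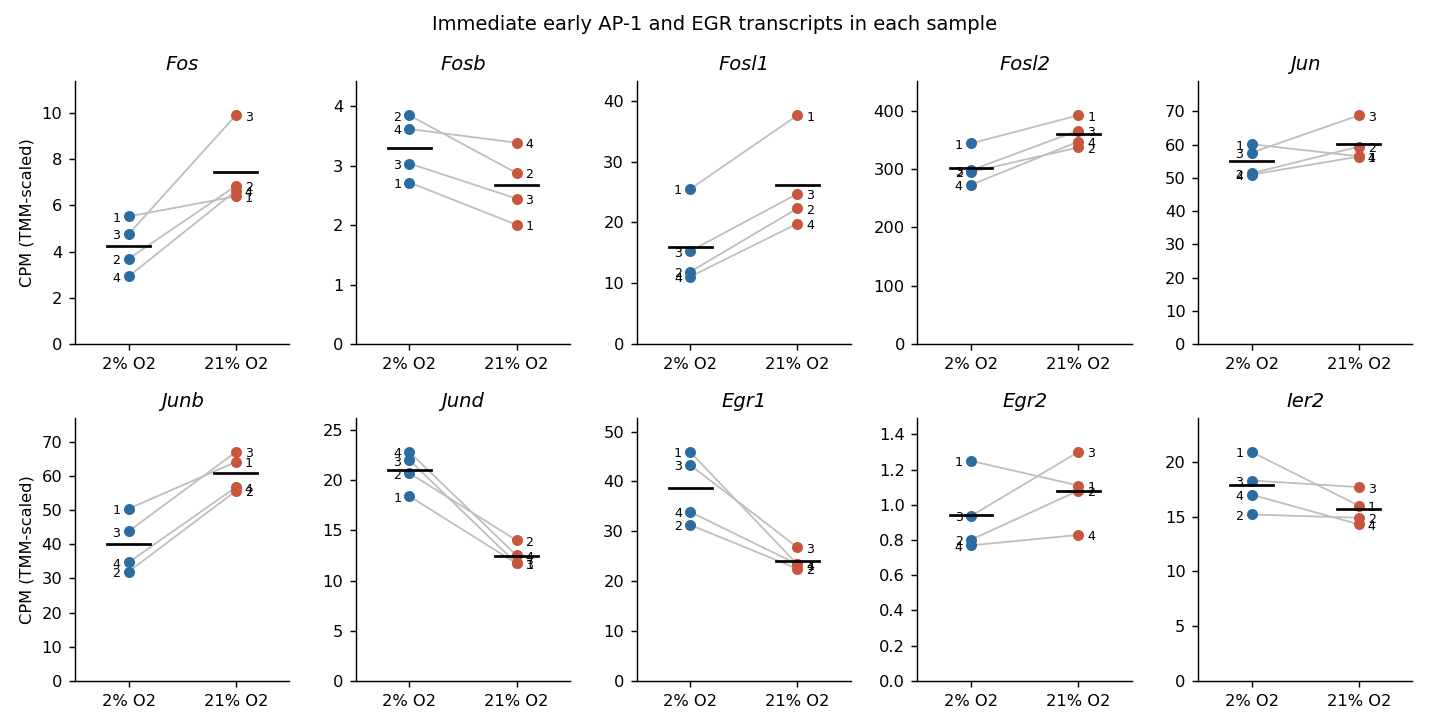
TMM-scaled CPM of each transcript on axes that start at 0, with 1 point per sample labelled by its replicate number, grey lines joining same-numbered samples and black bars at the group means (n = 4). Fos, Junb, Jund and Egr1 have groups that do not overlap, and Egr2 stays between 0.77 and 1.3 CPM.

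In the FOS family, whose proteins bind DNA with a partner, Fos, Fosl1 and Fosl2 were higher in normoxia and Fosb did not pass the threshold. Fos (ENSMUSG00000021250, chromosome 12, 85473890 to 85477273, plus strand) encodes the c-Fos protein. It stood at 5.52, 3.69, 4.76 and 2.93 CPM in hypoxia replicates 1 to 4 and at 6.39, 6.84, 9.89 and 6.63 CPM in normoxia replicates 1 to 4. The groups did not overlap, and normoxia replicate 3 stood well above the other 3. On the log2 scale Fos was higher in normoxia by 0.80 (SE 0.203, 95% interval 0.36 to 1.24, limma-trend adjusted p = 0.0093). These values rest on 38 to 137 counts per sample. The difference was 0.93 without hypoxia replicate 1 (adjusted p = 0.0026).

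Fosl1 encodes FRA-1 (ENSMUSG00000024912, chromosome 19, 5447547 to 5455946, plus strand), a FOS protein without the strong activation domain of c-Fos. It had 25.5, 11.9, 15.3 and 11.1 CPM in hypoxia and 37.6, 22.3, 24.7 and 19.8 CPM in normoxia. Replicate 1 was the highest in both groups, and hypoxia replicate 1 exceeded 3 of the normoxia samples, so that the groups overlapped. Within pairs normoxia was higher by 0.56 to 0.89 on the log2 scale. The fitted rise was 0.74 (SE 0.246, limma-trend adjusted p = 0.035). Blocking on the replicate number gave an adjusted p of 2.1e-07. The call was lost with the edgeR quasi-likelihood test (adjusted p = 0.06), with limma-voom (0.071) and with DESeq2 (0.11). It was also lost when hypoxia replicate 2, 3 or 4 or normoxia replicate 1, 2 or 3 was left out, where the change was 0.54 to 0.79.

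Fosl2, which encodes FRA-2 (ENSMUSG00000029135, chromosome 5, 32135801 to 32157842, plus strand), was the most counted member, with 3543 to 8232 counts. It had 344, 295, 298 and 273 CPM in hypoxia and 392, 337, 366 and 347 CPM in normoxia. Only hypoxia replicate 1 reached into the normoxia range. The rise was small, 0.26 on the log2 scale (SE 0.0754, limma-trend adjusted p = 0.02), and ranged from 0.19 to 0.35 within pairs. Leaving out hypoxia replicate 3 or 4 or normoxia replicate 1 or 3 ended the call, with changes of 0.20 to 0.25 and adjusted p of 0.054 to 0.068.

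Fosb, the family member whose truncated product is known from brain and bone, went the other way without passing the threshold (ENSMUSG00000003545, chromosome 7, 19302696 to 19310051, minus strand). It had 2.72, 3.85, 3.04 and 3.62 CPM in hypoxia and 2.01, 2.88, 2.45 and 3.39 CPM in normoxia. Normoxia was below hypoxia in 4 of 4 pairs, but the groups overlapped. The log2 change was -0.29 (SE 0.192, 95% interval -0.71 to 0.12, limma-trend adjusted p = 0.26) at 27 to 65 counts per sample, so a fall of up to 0.71 was within the interval.

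In the JUN family, Junb was higher in normoxia, Jund was lower, and Jun did not pass the threshold. Junb encodes a JUN protein that activates transcription more weakly than c-Jun and can oppose it (ENSMUSG00000052837, chromosome 8, 84974484 to 84978718, minus strand). Its CPM was 50.4, 32, 43.8 and 34.7 in hypoxia and 64.1, 55.6, 67 and 56.7 in normoxia. Every normoxia sample exceeded every hypoxia sample, and the spread was wider in hypoxia (SD 8.46) than in normoxia (SD 5.59). The log2 rise was 0.61 (SE 0.127, limma-trend adjusted p = 0.0031). Junb overlaps Prdx2 on the opposite strand by 351 bases, and whether the counting used strand is not given in the sources used here. Prdx2 had 2198 to 4875 counts and a log2 change of -0.20 (adjusted p = 0.042).

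Jund, which encodes JunD, a JUN protein found in resting cells and less dependent on stimulation than the others, had the lowest adjusted p of the 10 members (ENSMUSG00000071076, chromosome 8, 70698949 to 70700616, plus strand). It had 18.4, 20.7, 22 and 22.8 CPM in hypoxia and 11.7, 14, 11.7 and 12.5 CPM in normoxia. The lowest hypoxia sample stood above the highest normoxia sample. Jund fell by 0.74 on the log2 scale (SE 0.0985, limma-trend adjusted p = 0.00025). Its exons were the richest in GC of the 10 members, at 67.1%. After removal of trends with GC content and transcript length the change was -0.45 (adjusted p = 0.0025), the smallest size of change among the 22 alternatives. The antisense gene Gm11175, which overlaps Jund by 919 bases, had 0 counts in every sample.

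Jun, which encodes c-Jun, the partner of most FOS dimers (ENSMUSG00000052684, chromosome 4, 95049034 to 95052222, minus strand), had 60.1, 51.4, 57.6 and 51 CPM in hypoxia and 56.5, 59.4, 68.8 and 56.4 CPM in normoxia. The groups overlapped, and replicate 1 was lower in normoxia whereas the other 3 pairs were higher. The log2 change was 0.13 (SE 0.0817, 95% interval -0.05 to 0.31, limma-trend adjusted p = 0.25). After the correction for GC content and length it was 0.25 (adjusted p = 0.028, and 9e-04 with the replicate block), which put 5 members on the higher side. In that corrected fit with the block 21.7% of all genes were higher and 21.5% lower. Junos, antisense to Jun over 689 bases, had 29 to 75 counts.

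Of the EGR family, Egr1 was lower in normoxia. Egr1 (ENSMUSG00000038418, chromosome 18, 34859823 to 34864984, plus strand) encodes a factor that serum and MAP kinase signals induce in many cells. It had 45.9, 31.3, 43.3 and 33.9 CPM in hypoxia and 23.4, 22.5, 26.8 and 23.4 CPM in normoxia. The normoxia samples lay close together, below all hypoxia samples. Egr1 fell by 0.66 on the log2 scale (SE 0.118, 95% interval -0.92 to -0.41, limma-trend adjusted p = 0.0013), and within pairs by 0.47 to 0.96. The change was thus opposite in sign to that of Fos and Junb, 2 genes that the same signals are known to induce.

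Egr2, known from the development of hindbrain and nerve sheath, had only 10 to 30 counts per sample (ENSMUSG00000037868, chromosome 10, 67535475 to 67542188, plus strand). Its CPM was 1.25, 0.802, 0.937 and 0.77 in hypoxia and 1.11, 1.08, 1.3 and 0.83 in normoxia. The log2 change was 0.17 (SE 0.231, 95% interval -0.33 to 0.67, limma-trend adjusted p = 0.61). Ier2, an immediate early gene outside both families, encodes a small nuclear protein (ENSMUSG00000053560, chromosome 8, 84661331 to 84662852, minus strand). It had 20.9, 15.2, 18.3 and 17 CPM in hypoxia and 16, 14.9, 17.7 and 14.3 CPM in normoxia. Normoxia was lower in 4 of 4 pairs, by 0.03 to 0.38 on the log2 scale, and the groups overlapped. The fitted change was -0.18 (SE 0.11, 95% interval -0.42 to 0.06, limma-trend adjusted p = 0.24), and with the correction for GC content and length it was 0.08 (adjusted p = 0.61).

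**Figure D2:**
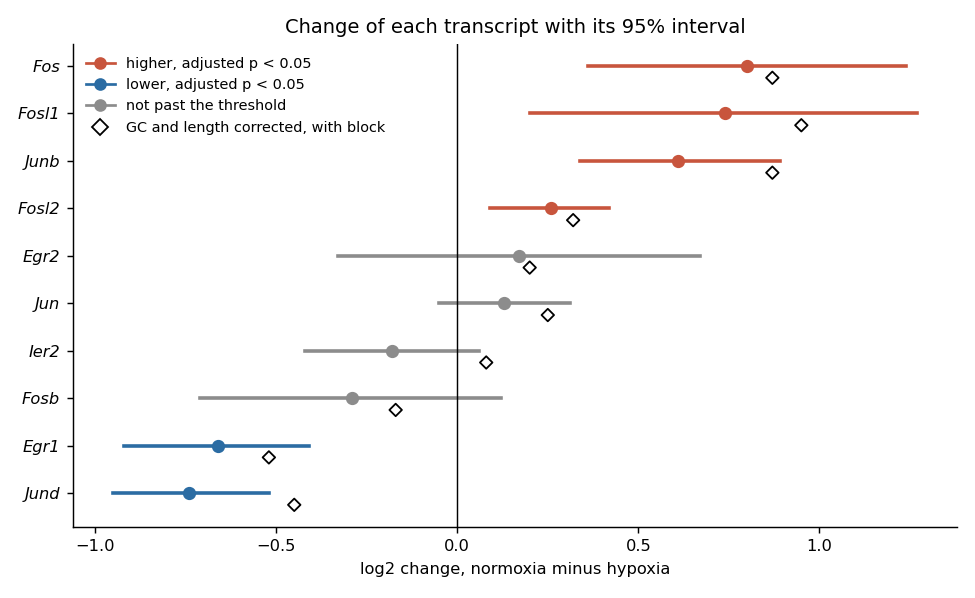
Log2 change of each transcript, normoxia minus hypoxia, with the 95% interval of the limma-trend fit (circle and line, 4 samples per group), and the change after correction for GC content and length with the replicate block (open diamond). Among the circles Fos is highest at 0.80 and Jund lowest at -0.74, among the diamonds Fosl1 is highest at 0.95 and Egr1 lowest at -0.52, and the diamond lies to the right of the circle for every member, with that of Ier2 on the other side of 0.

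The levels of different members were compared per length, as RPKM (CPM divided by the exon length in kilobases). In hypoxia Fosl2 was the most abundant at 31.2 ± 3.09 RPKM (SD, n = 4). Junb at 17.5 ± 3.68 and Jun at 17.3 ± 1.43 RPKM followed and could not be ranked, since their ranges overlapped. Jund at 12.6 ± 1.16 and Ier2 at 11.7 ± 1.57 RPKM overlapped as well, and so did Ier2 with Egr1 at 8.61 ± 1.58 and Egr1 with Fosl1 at 7.85 ± 3.27 RPKM. Fos at 1.80 ± 0.486, Fosb at 0.53 ± 0.0833 and Egr2 at 0.277 ± 0.065 RPKM were the lowest, in ranges apart from each other.

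In normoxia the order of the first 3 was Fosl2 at 37.2 ± 2.48, Junb at 26.4 ± 2.43 and Jun at 18.9 ± 1.83 RPKM (SD, n = 4), with Junb and Jun now in ranges that did not overlap. Fosl1 at 12.8 ± 3.91 RPKM overlapped with both Jun and Ier2, the latter at 10.3 ± 0.972 RPKM. Jund at 7.48 ± 0.639, Egr1 at 5.36 ± 0.431 and Fos at 3.16 ± 0.699 RPKM stood apart from each other, and Fosb at 0.43 ± 0.0949 overlapped with Egr2 at 0.318 ± 0.0569 RPKM. Summed over the members of a family, the FOS genes stood at 41.4 ± 6.68 RPKM in hypoxia and 53.7 ± 6.14 in normoxia. The JUN genes stood at 47.3 ± 4.45 and 52.8 ± 3.45, and Egr1 with Egr2 at 8.88 ± 1.64 and 5.67 ± 0.472. The ranges of the FOS and JUN sums overlapped between the groups, and those of the EGR sums did not.

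The make-up of the JUN family differed more than its sum. Jund held 26.8% of the summed JUN RPKM in hypoxia (range 21.3% to 30.6%) and 14.2% in normoxia (12.1% to 16.4%). Junb held 36.6% (32.8% to 42.3%) and 50% (47.2% to 52.9%), and Jun held 36.5% and 35.7%. The shares of Junb and Jund thus did not overlap between the groups, and those of Jun did. Within the FOS family Fosl2 made up 76% in hypoxia and 69.7% in normoxia, Fosl1 18.4% and 23.6%, Fos 4.29% and 5.94%, and Fosb 1.32% and 0.822%. All of these FOS shares overlapped between the groups. Egr2 was 3.11% of the sum of Egr1 and Egr2 in hypoxia and 5.59% in normoxia. Egr3, which is not a member, was left out of that sum. It averaged 1.2 CPM in hypoxia and 0.957 CPM in normoxia, against 0.941 and 1.08 CPM for Egr2. The shares derive from the levels given above and were not tested.

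**Figure D3:**
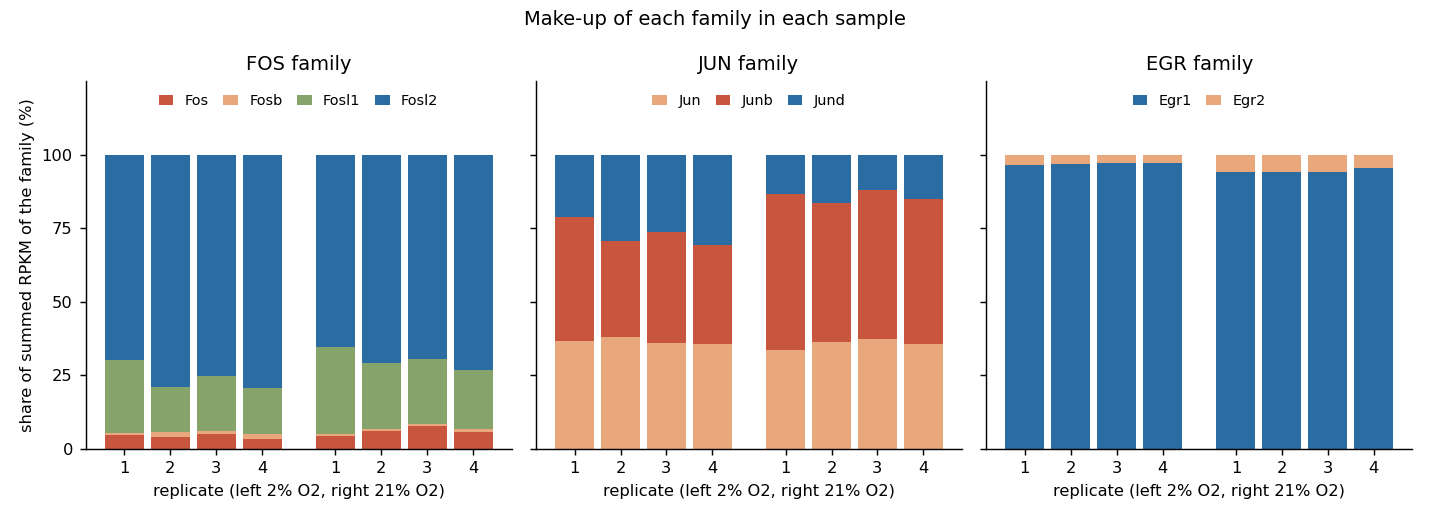
Share of each gene in the summed RPKM of the members of its family, in percent, as stacked bars for the 8 samples (4 at 2% O2 on the left, 4 at 21% O2 on the right of each panel). Jund is 21.3% to 30.6% of the JUN family in hypoxia and 12.1% to 16.4% in normoxia, while Fosl2 is the main FOS transcript in every sample.

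Several properties that played no part in the choice of the members were read from the annotation. The median GC content of their exons was 56.6%, against 49.7% over the tested genes, and their median exon length was 2770.5 bases against 4244. Jun, Junb, Jund and Ier2 had a longest transcript of 1 exon, as did 11.2% of the tested genes. The pentamer ATTTA, the core of AU-rich elements that are known to shorten the life of such messengers, was present at least once in the 3′ UTR of 9 members. Of 12826 tested genes with an annotated 3′ UTR 71.5% had it. Fosl2 had 8 copies, Fos and Jun 4, Egr2 3, Junb and Egr1 2, and Fosb, Fosl1 and Jund 1, whereas Ier2 had none. Fosl1 lies over Ccdc85b on the opposite strand for 2767 bases, and Ccdc85b had 565 to 1105 counts and a log2 change of 0.01 (limma-trend adjusted p = 0.93).

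The genes that work with these factors were then examined by role. Some genes are shared between lists, among them Maff, Atf3, Srf, Cd44 and Pdgfra, so the counts of the lists are not independent. Beside the counts below, 18.0% of all tested genes were higher and 16.5% lower, or 23.3% and 22.7% with the replicate block. Of the other leucine zipper partners of AP-1, 10 of 13 were tested, 2 were higher in normoxia and 3 were lower, with a median log2 change of -0.04. Maff and Mafk, small MAF proteins without an activation domain, rose by 1.18 (SE 0.206, adjusted p = 0.0011) and 0.72 (SE 0.101, adjusted p = 0.00034). Maf, a large MAF factor, fell by 0.50 (SE 0.115, adjusted p = 0.0056), and Atf7, an ATF protein that can pair with JUN, fell by 0.48 (SE 0.0759, adjusted p = 0.00062). Of 31 tested other immediate early genes 13 were higher and 3 lower, with a median of 0.22. Ccn2, a matricellular protein, rose by 1.04 (SE 0.18, adjusted p = 0.0011) and Sgk1, a serum-induced kinase, by 0.84 (SE 0.17, adjusted p = 0.0027). Klf2, a zinc finger factor, fell by 0.91 (SE 0.0891, adjusted p = 6.2e-05). Klf2 thus moved in the direction of Jund and Egr1, against most of the called genes of its list. All these values are from limma-trend.

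Upstream of the factors, 14 regulators of the SRF, ternary complex and CREB kind were tested, of which 1 was higher and 4 were lower, or 7 lower with the replicate block. Crem, a cyclic AMP-responsive factor with repressor forms, rose by 0.49 (SE 0.157, limma-trend adjusted p = 0.03). That call was lost without hypoxia replicate 2, 3 or 4 and without normoxia replicate 1, 2 or 3, and the change was 0.31 after the correction for GC content and length (adjusted p = 0.094 with the block). Elk4 and Elk1, ternary complex factors that bind beside SRF, fell by 0.42 (adjusted p = 0.0025) and 0.21 (adjusted p = 0.04). For Elk1 the adjusted p was 0.077 with that correction alone and 0.028 with the correction and the block. Crebbp, a co-activator, fell by 0.41 (adjusted p = 0.002). Of 28 MAP kinase and RAS-RAF genes 6 were higher and 4 lower, or 7 lower with the block, around a median of 0.03. These counts lie near the shares of all tested genes, 18.0% higher and 16.5% lower, or 22.7% lower with the block. Mapk3, which encodes ERK1, fell by 0.61 (SE 0.0628, adjusted p = 7.7e-05) and Mapk7 by 0.41 (adjusted p = 0.0071). Map2k4 and Mapk8, which encode kinases of the JNK branch that phosphorylates c-Jun, rose by 0.32 (adjusted p = 0.0027) and 0.31 (adjusted p = 0.0096). The correction for GC content and length brought these to 0.17 and 0.08, of which the latter was not called (adjusted p = 0.39 with the block), and it brought Mapk7 to -0.27.

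Among 18 tested MAP kinase phosphatases and ERK inhibitors 4 were higher and 2 lower, with a median of -0.07. The shares over all tested genes were 18.0% and 16.5%. Without hypoxia replicate 4 the number higher was 2, and without hypoxia replicate 2 or 3 the number lower was 1. Dusp4, Dusp1 and Dusp3, phosphatases of MAP kinases, rose by 0.68 (limma-trend adjusted p = 0.023), 0.66 (adjusted p = 0.016) and 0.48 (adjusted p = 0.0022). Dusp4 had 26 to 72 counts per sample. Rasa1, which switches RAS off, rose by 0.35 (limma-trend adjusted p = 0.0011), or by 0.14 after the correction for GC content and length (adjusted p = 0.098, and 0.043 with the block). Of the 2 EGR co-repressors tested, Nab1 rose by 0.64 (SE 0.076, adjusted p = 0.00014). Both were higher with the replicate block, without hypoxia replicate 1 or without scaling factors. The same held with the GC and length correction, with and without the block. Nab1 thus moved opposite to Egr1.

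Of 18 tested genes known as AP-1 targets, 12 were higher in normoxia and 0 were lower, against 18.0% and 16.5% of all tested genes. With the replicate block 15 were higher and 1 lower, against 23.3% and 22.7%, and 1 was lower without hypoxia replicate 2. Their median log2 change was 0.64, against 0 over all tested genes. Ptgs2, the inducible enzyme of prostaglandin synthesis, rose by 2.01 (SE 0.494, limma-trend adjusted p = 0.0081), from 10.7 ± 9.26 to 40 ± 25.1 CPM (SD, n = 4), with groups that overlapped. Ccl2, a chemokine, and Lif, a cytokine with 12 to 62 counts per sample, each rose by 1.16 (limma-trend adjusted p = 0.0023 and 0.0038). Many of these genes are also induced through other factors, and the part of AP-1 in these values was not tested.

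A list of heat shock genes and genes that tissue dissociation is known to induce was examined as well, and its genes moved in both directions. Of its 17 genes 8 were higher in normoxia and 2 lower, against 18.0% and 16.5% of all tested genes, with a median of 0.22. The number lower was 1 when any sample other than hypoxia replicate 2 or normoxia replicate 1 was left out. The summed level of the 17 genes was 5350 to 6070 CPM in hypoxia and 6650 to 7360 CPM in normoxia. Hspa5 alone averaged 776 CPM in hypoxia and 1240 CPM in normoxia. Nfkbiz rose by 1.16 (adjusted p = 0.00053), and the chaperones Hsph1, Hspa5 and Hsp90aa1 by 1.02 (adjusted p = 0.00022), 0.68 (adjusted p = 3.8e-05) and 0.61 (adjusted p = 0.0015), all by limma-trend. Not called were 7 genes of the list, among them Hspa1a (0.13), Hspa1b (0.18), Dnajb1 (0.01) and Bag3 (-0.03). Hspb1 fell by 0.46 (limma-trend adjusted p = 0.0032), or by 0.15 after the correction for GC content and length (adjusted p = 0.3). Of the blood cell markers 1 was higher, Lyz2 by 0.56 (adjusted p = 0.022), a call that was lost without normoxia replicate 3 or 4. None of them was lower by limma-trend, 4 were with the replicate block, and 2 were without hypoxia replicate 1 or normoxia replicate 3. Csf1r (-0.59), Itgam (-0.46), Tyrobp (-0.32), Cd68 (-0.28) and Adgre1 (-0.11) pointed lower without a limma-trend call, and Ptprc changed by 0.08. Of the MSC markers 3 were higher and 2 lower, or 5 and 6 with the block, and 1 was lower without hypoxia replicate 2, 3 or 4 or normoxia replicate 3. Nt5e, Cd44 and Itgb1 rose by 0.59, 0.72 and 0.44 (0.28 for Itgb1 with the correction), and Col1a1, the main collagen chain of bone, fell by 0.74 (adjusted p = 0.0038). No endothelial marker of 3 tested was called. Of 5 tested adipocyte and osteoblast markers 2 were lower, Sp7 by 0.80 (adjusted p = 0.00021) and Alpl by 0.48 (adjusted p = 0.0083). The part of these lists in the differences of the AP-1 and EGR transcripts was not tested.

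**Figure D4:**
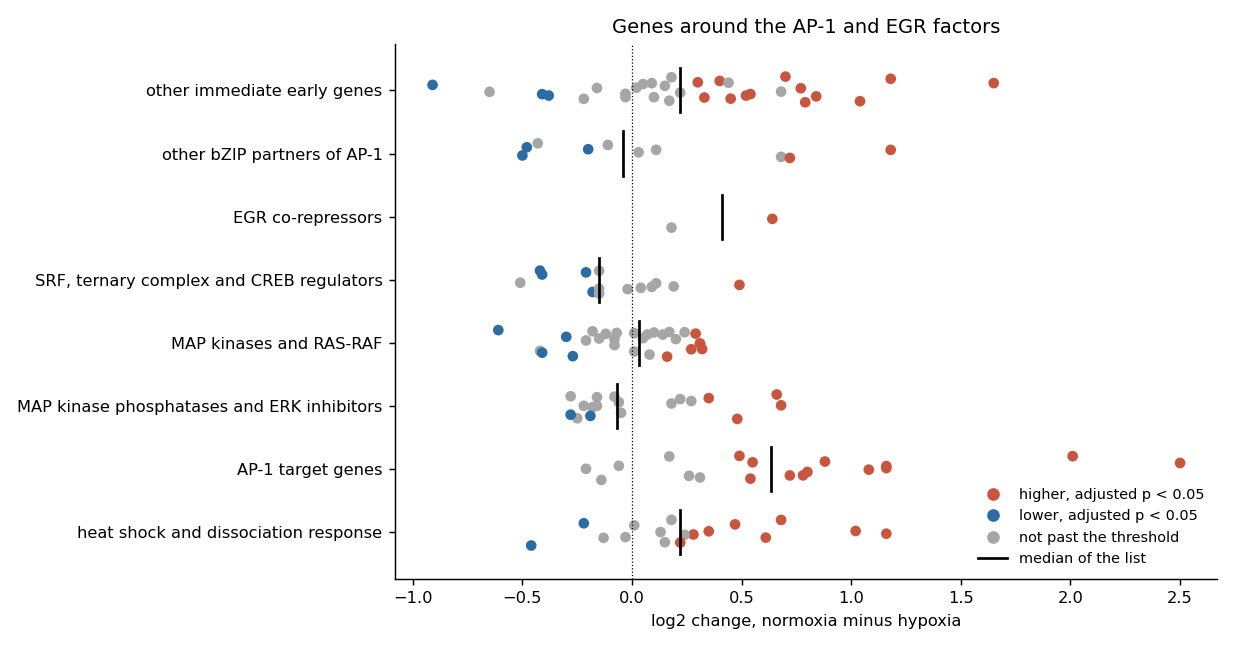
Log2 change, normoxia minus hypoxia, of each tested gene in 8 lists around the AP-1 and EGR factors, coloured by the limma-trend call, with a black line at the median of each list and vertical scatter only to separate points. The AP-1 target list has its median at 0.64, and its rightmost point is Il6 at 2.50, which was named after its values were seen. Il6 had only 2 to 57 counts per sample.

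The genes whose pattern over the 8 samples was most like the mean standardized level of the 10 members were Tnfrsf1a (Pearson r = 0.95), Gpat4, Afg3l1 and Psmd3 (0.94 each) and Itga5 (0.92). That mean was 0.61, -0.54, 0.08 and -0.55 in hypoxia and 0.07, -0.02, 0.55 and -0.19 in normoxia. It did not separate the groups, since the members moved in both directions. The 8 points share their libraries, and r is a description of these samples. The 5 genes did not pass the threshold between the groups, with log2 changes of 0.03 to 0.07 (limma-trend adjusted p of 0.52 to 0.76).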

How the data were processed

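RNA-seq of 8 samples (4 hypoxia, 4 normoxia) was used. Per the labels and the methods of the study, single-end reads were mapped to mm10 with STAR within zUMIs and assigned to Ensembl genes with featureCounts. The authors deposited the raw counts per gene as whole numbers for 53465 identifiers, without normalization. The use of strand, introns and multiply mapped reads is not given in the sources used here. Symbols and positions were taken from GENCODE M21 (GRCm38), which gave a symbol for 53360 identifiers. Promoter sequences are from RefSeq (GRCm38.p6).

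Genes were kept with filterByExpr of edgeR 4.0.16 at a minimum count of 5, which left 14369 genes with 99.9% of the counts. Log2 CPM with TMM factors and a prior count of 3 was compared by limma-trend (limma 3.58.1, R 4.3.3) with Benjamini-Hochberg adjustment over all tested genes and a threshold of 0.05. A positive change is higher in normoxia. The prior count draws the changes of sparsely counted genes towards 0. RPKM used the summed exon length. The main fit design, without a block, follows the study's methods, and TMM was added since no normalization is stated there. Total counts ranged from 12898291 to 25132141, so hypoxia replicate 1 carries less counting error.

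Same-numbered samples were treated as possible pairs because the study divided the sorted cells between oxygen levels. Their deviations from the group means correlated at 0.47, 0.28, 0.25 and 0.17 for numbers 1 to 4. Alternatives were the edgeR quasi-likelihood test, DESeq2 1.42.0, limma-voom, the replicate block, other scaling, filters, prior count and threshold, removal of GC and length trends with splines (5 degrees of freedom each), and leaving out each sample. Real differences that track GC content or length are removed with the trends. The fits were tested on simulated counts.

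The members and the gene lists were chosen with earlier results of these data known, so their counts are descriptions. The genes named from each list are at most the 4 with the largest change among those called with a mean log2 CPM of at least 1. The values of 1 gene that this rule selects are not reported here. The 5 genes of most similar pattern had a mean log2 CPM of at least 3. Also named were genes checked against the sort, overlapping genes and, after their values were seen, further heat shock and blood cell genes.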

Additional observations from a re-analysis of the deposited data

Results flagged for a closer look

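Within groups of 4 samples, the gap of the highest or lowest log2 CPM to its neighbour was set against the range of the group by Dixon's test at the 95% level, for 90 sets of values. About 4.5 sets are expected to pass by chance, and 5 did. Fos in normoxia replicate 3 stood at 3.34, above 2.72 to 2.82 in the other normoxia samples (ratio 0.843). Without that sample the log2 change of Fos was 0.65 (limma-trend adjusted p = 0.033). Maf in normoxia replicate 1 stood at 6.75, below 7.06 to 7.11 (ratio 0.865). Rasa1 in hypoxia replicate 4 stood at 5.57, below 5.71 to 5.73 (ratio 0.855). Hsph1 in hypoxia replicate 1 stood at 7.38, above 6.90 to 6.92 (ratio 0.956). Nt5e in normoxia replicate 2 stood at 3.67, below 4.09 to 4.16 (ratio 0.876).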

How the results depend on the processing

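The calls of Fos, Junb, Jund and Egr1 held in all 22 alternatives, with log2 changes of 0.65 to 0.93, 0.51 to 0.87, -0.81 to -0.45 and -0.76 to -0.52. The number of members lower in normoxia was 2 in all 22. The number of members higher was 4 in the main fit and 3 with the edgeR quasi-likelihood test, DESeq2 or limma-voom. With the GC and length correction it was 5, with and without the block. At a threshold of 0.01 it was 2, where Fosl1 (0.74) and Fosl2 (0.26) dropped out. It ranged from 2 to 4 when 1 sample was left out. Fosl1 was below the call with the edgeR quasi-likelihood test (0.68), DESeq2 (0.70) and limma-voom (0.65), and at 0.54 to 0.79 in 6 of the fits without 1 sample. Fosl2 was below it at 0.20 to 0.25 in 4 of these fits. The cause was not tested. Jun passed the threshold with the GC and length correction (0.25), with and without the block. Across all genes 4970 were called, 2925 at a threshold of 0.01 and 6610 with the replicate block, and 3838 to 5423 without 1 sample. The replicate block gave 4 members higher and 2 lower and changed the call of no member. The share of calls that were higher was 69.6% without scaling factors, where 11 MAP kinase and RAS-RAF genes were higher in place of 6. With the length of the longest transcript in place of the summed exons, Junb was 42.4% of the JUN family in hypoxia and 56% in normoxia, Jun 33.2% and 31.5%, and Fosl2 80.6% and 75.4% of the FOS family. The members with the fewest counts per sample were Egr2, with 10 to 30, and Fosb, with 27 to 65, and the part of depth in their adjusted p was not tested.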
